A study of Mus musculus with 4 samples.

Results

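Synaptic vesicle and exocytosis genes were followed through a course of electroconvulsive stimulation (ECS), a rodent model of electroconvulsive therapy, in the mouse dentate gyrus (DG). They were taken by symbol: synapsins, synaptophysin and its relatives, SV2 proteins, vesicular glutamate transporters, synaptotagmins, vesicle and target SNAREs, syntaxin-binding proteins, Rab3, Rim, Munc13, complexins and synaptojanins. All probe sets of the array that carried 1 such symbol were members, 131 of 20380 probe sets with a single symbol, and they stood for 66 of 12393 genes. The brightest probe set of a gene, by its mean over the arrays, stood for the gene, and 53 of the 66 genes had a mean of at least 50 signal units, as did 7371 genes in all.

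The study asked how ECS alters granule cells (GCs) of the adult DG. The animals were adult male mice by the methods. DG RNA of C57Bl/6 mice was measured on 4 Affymetrix arrays, 1 per group, and each array received RNA pooled from 3 animals. The first group had a sham session and the second a single ECS, both with tissue taken 1 h later. The other groups had 10 ECS, with tissue taken 48 h after the last, or 11 ECS, with tissue taken 1 h after the last. All stimulated mice received a bilateral current of 25 mA for 1 s through ear clips, and the repeated groups had 4 sessions a week over 3 weeks. All mice, sham included, were handled under isoflurane. By the study's account the 10 ECS mice had a sham session 1 h before dissection, which the labels leave out. The groups come from the sample titles, since the free-text descriptions of 3 samples name other treatments. Fos, an activity-induced transcription factor gene, read 1833 units after a single ECS and 139 in sham, and 937 after 11 ECS and 82.8 after 10 ECS, so that both arrays titled as 1 h after ECS were the high ones.

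A synaptic vesicle is loaded with transmitter, docked at the active zone, and primed by Rim and Munc13 proteins. SNARE proteins of the vesicle (synaptobrevins) and of the plasma membrane (a syntaxin and SNAP-25) zip together to fuse both membranes, Munc18 proteins (the Stxbp genes) chaperone the syntaxin, complexins hold the assembled complex, and synaptotagmins sense the calcium that sets it off. In the DG this machinery serves the mossy fibre terminals of GCs, which are known for a low initial release probability and strong facilitation, and the terminals of local interneurons.

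Signals are Microarray Suite 5.0 (MAS5) intensities on a linear scale, in arbitrary units, and can be compared for the same probe set across arrays but not between probe sets. Each log2 ratio below is relative to the median gene of its comparison, because the median over all genes was -0.24 for single ECS over sham, -0.10 for 11 ECS over 10 ECS, -0.14 for 10 ECS over sham and -0.004 for 11 ECS over single ECS. A gene was called higher or lower when it lay at least 1.5-fold from that median, 0.58 on the log2 scale. This limit is a size and not a test. With 1 array per group no spread between mice or arrays could be measured, no p-value was computed, and the error at hand was how far probe sets of a gene lay apart, with a pooled SD of 0.22, 0.21, 0.23 and 0.22 on the log2 scale in the order above (0.20, 0.23, 0.18 and 0.17 among the members). The 5 GC markers measured here all had signals above 50 units on every array, as did all 6 interneuron markers and the CA1 marker Wfs1, so these signals do not separate the DG from its surroundings.

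Most of the vesicle machinery stayed within 1.5-fold of the median gene in all 4 comparisons. This was so for 47 of the 53 members (88.7%), and for 86.6% of all genes. The 6 members past the limit at least once (11.3%, against 13.4% of all genes) were Stxbp3, Stx4a, Rab3d, Unc13b, Cplx2 and Stx2. The share of members past the limit was thus near that of all genes. These calls use the brightest probe set. Of 34 dimmer ones with a mean of at least 50 units 5 passed the limit in 1 comparison or more. They were those of Stx17, Stx18, Syngr1, Syt17 and Vamp3, genes that were not called. The share of such dimmer probe sets past the limit over all genes was not computed, so this count has no background.

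**Figure D1:**
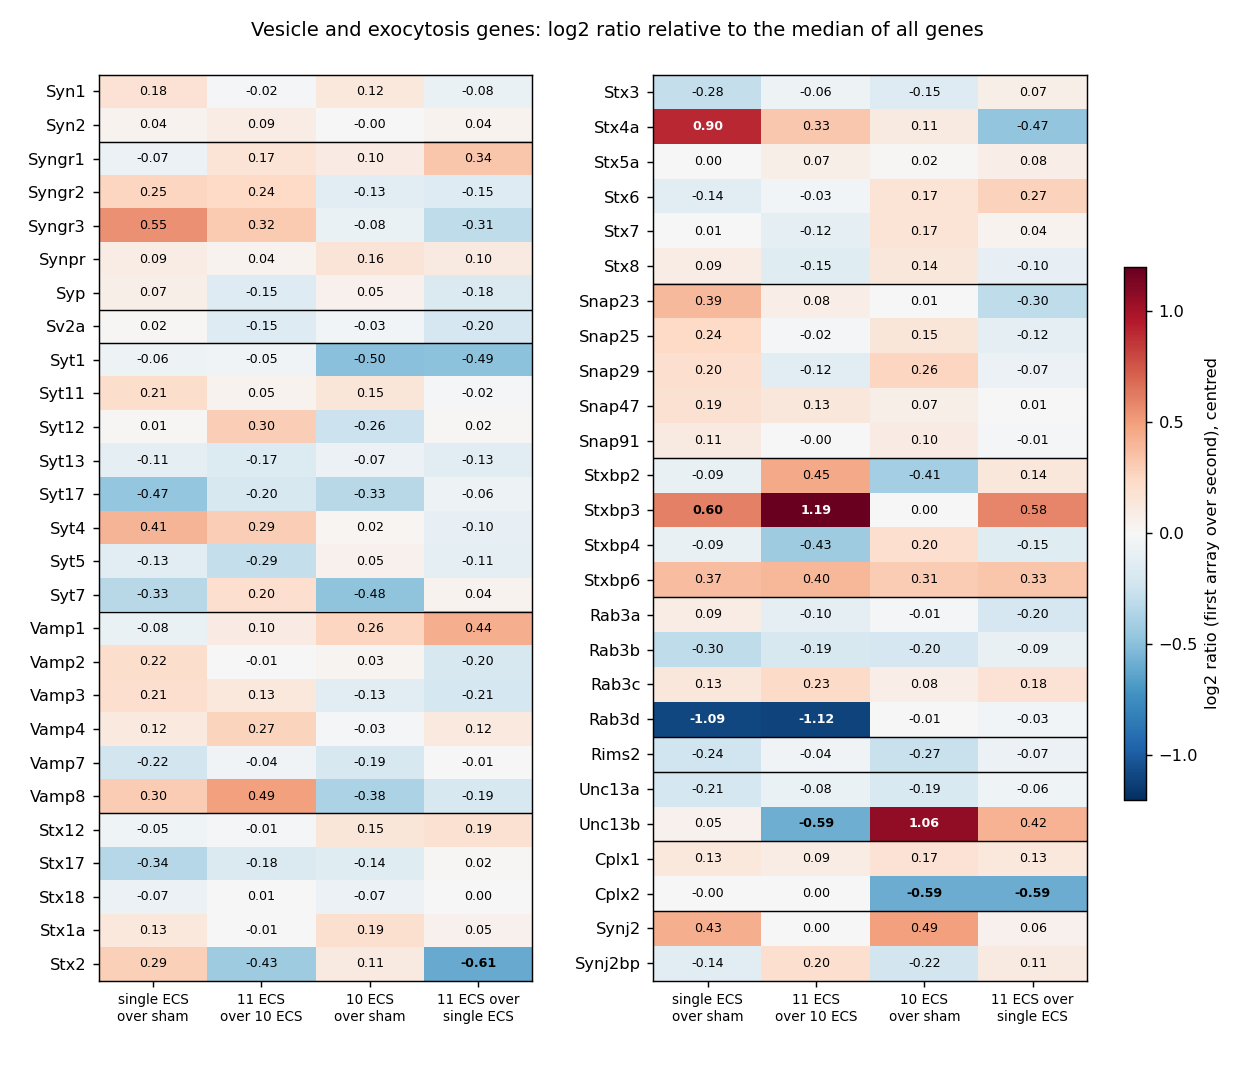
Log2 ratios of the 53 members with a mean of at least 50 units (rows, lines between families) in the 4 comparisons (columns), each relative to the median of all genes and each from 1 array over another; bold numbers are at least 1.5-fold from the median. Bold values stand in 6 rows, Stxbp3, Stx4a, Rab3d, Unc13b, Cplx2 and Stx2, and the rows of the synapsins lie between -0.08 and 0.18.

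In the vesicle membrane families no member passed the limit by its brightest probe set. Syn1, which encodes a phosphoprotein that tethers vesicles to actin, read 660.1 units in sham, 632 after a single ECS, 651 after 10 ECS and 598 after 11 ECS. Syn2, its close relative, read 3139, 2741, 2838 and 2805 units in the same order. The 4 arrays thus lay near each other for both synapsins, and their centred ratios lay between -0.08 and 0.18. Syp, the abundant vesicle protein synaptophysin, read 606, 539.8, 569 and 476 units. Synpr, which encodes synaptoporin, a synaptophysin relative of mossy fibre terminals, read 2847, 2572, 2880 and 2756 units. Neither differed by more than 0.18 on the log2 scale in any comparison. Sv2a, the vesicle glycoprotein that binds the antiepileptic levetiracetam, read 1190.5 units in sham, 1021 after a single ECS, 1057 after 10 ECS and 885 after 11 ECS, with ratios between -0.20 and 0.02. No direction was read from ratios this small, since the sign of 53 of the 212 ratios of the members changed with the scaling between arrays.

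The exception nearest to the limit in these families was Syngr3, a neuronal synaptogyrin, with 762 units after a single ECS and 616 in sham (log2 ratio 0.55), and 615 after 11 ECS and 529.9 after 10 ECS (0.32). Its second probe set read in the same direction, 0.39 and 0.30. Both arrays at 1 h after ECS were above their partners. Syngr1, the other neuronal synaptogyrin, read 705, 569, 685 and 716 units from sham to 11 ECS, lowest after a single ECS, with a ratio of 0.34 for 11 ECS over single ECS. Its second probe set went the other way, with 54.3, 85.3, 77.8 and 66.4 units, highest after a single ECS (0.89 over sham), and 11 ECS lay at -0.36 relative to single ECS, so the direction of Syngr1 was not settled. The vesicular glutamate transporter gene Slc17a6 was dim on every array, between 23.9 and 40.0 units, and gave no ratio under the mean of 50. Slc17a7, the transporter known for GCs, is not among the genes analysed here.

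The calcium sensors did not move as one. Of 14 synaptotagmin genes 8 had a mean of at least 50 units, and 0 of those passed 1.5-fold in any comparison, a count too small to set apart from the 13.4% of all genes. Syt1, the sensor of fast synchronous release, read 314 units in sham, 255 after a single ECS, 201 after 10 ECS and 181 after 11 ECS. Both arrays with earlier ECS were the low ones, with ratios of -0.50 for 10 ECS over sham and -0.49 for 11 ECS over single ECS, on pairs that share no array. Its second probe set gave -0.20 and -0.45. Syt7, the slow sensor of asynchronous release and facilitation, read 92.1, 62.1, 59.7 and 63.8 units from sham to 11 ECS. The sham array alone stood above the others, with a ratio of -0.48 for 10 ECS over sham. Syt17, which encodes the B/K protein of intracellular membranes, read 641, 393, 463 and 376 units, again highest in sham. Its ratio was -0.47 for single ECS over sham and -0.20 for 11 ECS over 10 ECS, and its second probe set gave -0.71 and -0.25. Syt4, a synaptotagmin of dense-core vesicles known in the rat as an activity-induced gene, read 883, 995, 814 and 928 units from sham to 11 ECS and lay above 0 in both responses to ECS (0.41 and 0.29). The second probe set of Syt4 gave 0.19 and 0.14, within the spread between probe sets. Syt11, which binds no calcium, read 3339, 3283, 3354 and 3226 units, close together on all arrays. Syt5, a synaptotagmin of dense-core and secretory vesicles, read 99.0, 76.9, 93.2 and 71.0 units, lower on both arrays at 1 h after ECS, with ratios of -0.13 and -0.29 in the responses. Syt12, which does not bind calcium, read 78.2, 66.9, 59.1 and 67.5 units, with ratios between -0.26 and 0.30.

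Among the vesicle SNAREs, Vamp2, the main synaptobrevin of neurons, read 2025, 1992, 1874 and 1734 units from sham to 11 ECS, with ratios between -0.20 and 0.22. None of the 6 genes with a mean of at least 50 passed the limit. Vamp8, an endosomal SNARE of secretory cells, came nearest, with 80.8 units after 11 ECS and 61.8 after 10 ECS (0.49), and with 92.5 after a single ECS and 88.5 in sham (0.30). Vamp1, the other synaptobrevin, read 231, 185, 250.4 and 250 units from sham to 11 ECS and had ratios of 0.26 for 10 ECS over sham and 0.44 for 11 ECS over single ECS, above 0 on both pairs. Vamp3, a broadly expressed synaptobrevin relative, had probe sets that disagreed after a single ECS (0.21 for the brightest and 0.78 for another).

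The target SNAREs of the synapse stayed within the limit. Snap25, the neuronal plasma membrane SNARE, read 8734, 8764, 8784 and 8052 units, and its ratios lay between -0.12 and 0.24. Stx1a, its syntaxin partner, read 932, 862.5, 962 and 891 units, with ratios between -0.01 and 0.19. A second, dimmer probe set of Stx1a spread further, with 0.38 for single ECS over sham, -0.41 for 11 ECS over 10 ECS, 0.41 for 10 ECS over sham and -0.38 for 11 ECS over single ECS. Snap23, a relative of Snap25, lay at 0.39 for single ECS over sham and 0.08 for 11 ECS over 10 ECS. Snap91 carries a similar symbol but encodes the clathrin adaptor AP180 of vesicle retrieval. It read 3468, 3168, 3370.0 and 3135 units, with ratios between -0.01 and 0.11.

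Stx4a and Stx2, plasma membrane syntaxins that serve exocytosis in many cell types, were the syntaxins past the limit. Stx4a read 285 units after a single ECS and 179.9 in sham, 1.87-fold higher relative to the median gene (log2 ratio 0.90). After 11 ECS it read 205 units and after 10 ECS 176, a ratio of 0.33 and under the limit. The single ECS array thus stood alone, and 11 ECS lay at -0.47 relative to single ECS. Stx2 read 60.3 units after 11 ECS, against 92.2 after a single ECS (-0.61), 87.2 after 10 ECS (-0.43) and 89.1 in sham. For Stx2 the 11 ECS array was the one that stood apart, at a signal close to the minimum mean of 50. Each of these genes had 1 probe set, so no second reading was at hand. The other 9 syntaxins with a mean of at least 50, which include the endosomal Stx6, Stx7, Stx8 and Stx12 and the Golgi syntaxin Stx5a, stayed within the limit by their brightest probe sets, between -0.34 and 0.27. Dimmer probe sets did not all do so, and in 11 ECS over 10 ECS 1 of Stx18 gave 0.69 and 1 of Stx17 0.66. In 10 ECS over sham 1 of Stx5a gave 0.58, just under the limit. The lowest brightest-probe-set ratio was that of Stx17, the syntaxin of autophagosome fusion, with 108 units after a single ECS and 161 in sham (-0.34).

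Stxbp3 encodes Munc18c, the Sec1/Munc18 protein that binds Stx4 and governs regulated exocytosis such as glucose transporter delivery. It read 272.5 units after a single ECS and 212 in sham (log2 ratio 0.60, 1.52-fold), and 407 after 11 ECS and 192 after 10 ECS (1.19, 2.27-fold). Both arrays at 1 h after ECS were above both arrays without a recent stimulus, and the 10 ECS over sham ratio was 0.004. The 11 ECS array was also above the single ECS array, with a ratio of 0.58 just under the limit. The second, dimmer probe set read 35.1 after a single ECS and 29.5 in sham, and 39.8 after 11 ECS and 30.4 after 10 ECS, 0.49 in each response. Its ratio for 11 ECS over single ECS was 0.19. As deposited, with no centring, the first response of the brighter probe set was 0.36 and under the limit. RefSeq lists a pseudogene of this gene, and whether its transcripts reach the probes was not checked. Among the relatives, Stxbp6 (amisyn, a soluble SNARE-binding protein) lay above 0 in all 4 comparisons (0.31 to 0.40), and it read 191 units in sham, 209.9 after a single ECS, 215 after 10 ECS and 264 after 11 ECS. Stxbp2 (Munc18b) had probe sets in opposite directions in 11 ECS over 10 ECS (0.45 and -0.35). Stxbp4 (Synip, an Stx4-binding protein) read 76.3 units after 11 ECS and 110.4 after 10 ECS (-0.43), and 84.8 after a single ECS and 106 in sham (-0.09), so that it did not share the pattern of Stxbp3.

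**Figure D2:**
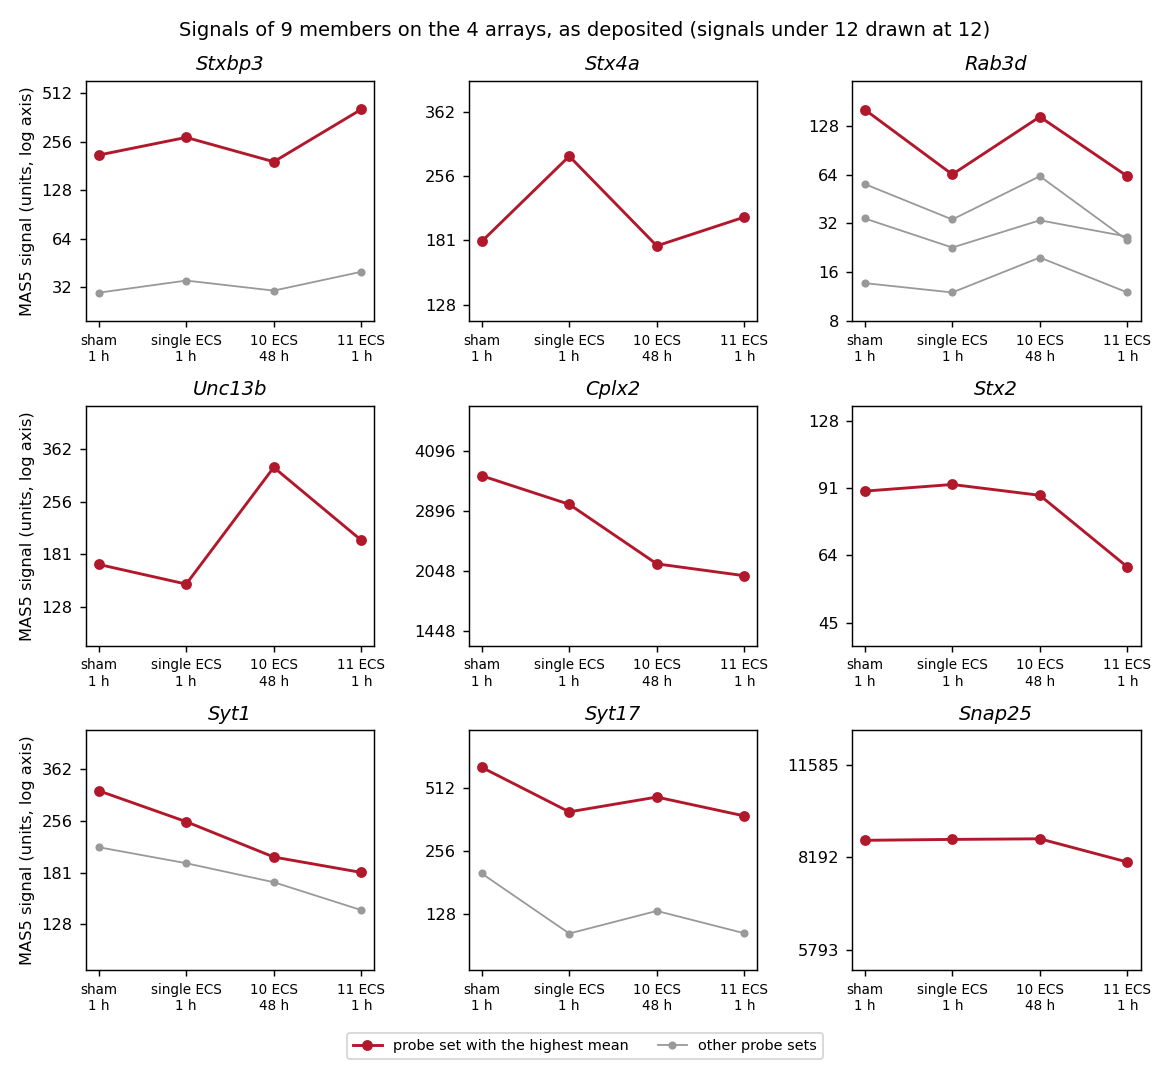
MAS5 signals (log axis, units) of 9 members on the 4 arrays, 1 point per array and probe set, joined by lines to guide the eye; red is the probe set with the highest mean and grey the others, and signals under 12 are drawn at 12. Stxbp3 is high on both 1 h ECS arrays (272.5 and 407 units) and Rab3d low on both (64.1 and 62.4), Cplx2 is low on both arrays after earlier ECS (2135 and 1994), and Snap25 lies between 8052 and 8784 units.

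Promoter sequences of the members were searched because several ECS-induced genes are known targets of CREB, AP-1 and Egr factors. RefSeq promoters (GRCm38.p6, 250 bases before to 50 after a gene's start) were at hand for 51 of the 66 genes, 66 promoters in all. The full cyclic AMP response element TGACGTCA, its own reverse complement, stood in 2 of them (3.03%), those of Stxbp3 and Syn1, and in 588 of all 32851 promoters (1.79%). The letters TGACTCA or TGAGTCA of AP-1, each the reverse complement of the other, stood in 3 (4.55%, against 5.20% of all), and those of Egr factors, GCGTGGGCG or GCGGGGGCG on either strand, in 5 (7.58%, against 3.47%). GCGGGGGCG also overlaps the GC-rich letters that Sp1 binds. The 3 AP-1 matches were in Syt2, Syt6 and Syt8, all under the mean of 50 units, and the 5 Egr matches in Cplx1, Syn2, Syngr1, Unc13a and Vamp4, none past 1.5-fold by its brightest probe set. The dimmer probe set of Syngr1 was past it (0.89 for single ECS over sham). The 250 bases before the start are given for Stxbp3 (chr3:108840503-108840752, minus strand) and Syn1 (chrX:20920919-20921168, minus strand), 5′ to 3′ along the gene's strand with the element in capitals, since they hold the same 8 letters while the gene signals differed.
Stxbp3: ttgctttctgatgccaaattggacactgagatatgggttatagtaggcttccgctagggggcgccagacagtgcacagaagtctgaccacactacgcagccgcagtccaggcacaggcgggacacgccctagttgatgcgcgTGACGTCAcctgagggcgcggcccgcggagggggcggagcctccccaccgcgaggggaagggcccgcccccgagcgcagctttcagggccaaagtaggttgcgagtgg
Syn1: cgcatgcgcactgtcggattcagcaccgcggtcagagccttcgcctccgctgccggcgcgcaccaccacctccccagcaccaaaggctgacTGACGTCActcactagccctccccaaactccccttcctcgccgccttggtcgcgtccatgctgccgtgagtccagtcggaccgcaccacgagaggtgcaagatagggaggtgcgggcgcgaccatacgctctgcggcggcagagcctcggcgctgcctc
The element starts 108 bases before the start of Stxbp3 and 159 bases before that of Syn1. Stxbp3 had ratios of 0.60 and 1.19 in the responses to the first and the 11th ECS, and Syn1 had 0.18 and -0.02. A match of letters is a description of the sequence and not a measured binding site.

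The low member at 1 h was Rab3d, a Rab GTPase of secretory granules known from exocrine and mast cells. It read 64.1 units after a single ECS and 161 in sham (log2 ratio -1.09, 2.13-fold lower), and 62.4 after 11 ECS and 145 after 10 ECS (-1.12, 2.17-fold lower). The 1 h ECS arrays lay close together, as did the other pair. A second probe set read 33.8 after a single ECS and 55.9 in sham (-0.49), and 25.2 after 11 ECS and 62.5 after 10 ECS (-1.21), and another gave -0.36 and -0.23. The dimmest lay under the floor of 12 units on both 1 h ECS arrays, with 8.1 and 5.7 units, against 13.7 in sham and 19.7 after 10 ECS. All 4 probe sets thus read lower on both 1 h ECS arrays, by amounts that differed among them. The Rab3 proteins of neuronal vesicles did not pass the limit. Rab3a, the main one in brain, read 822, 741, 741 and 641 units from sham to 11 ECS, with ratios between -0.20 and 0.09. Rab3b read 112.5, 77.2, 88.7 and 72.4 units, highest in sham, with ratios between -0.30 and -0.09. Rab3c read 128, 119, 122.6 and 134 units, with ratios between 0.08 and 0.23. Its second probe set, with a mean of 118.7 units, gave ratios between -0.14 and 0.29. For 11 ECS over 10 ECS these probe sets went in opposite directions (0.23 and -0.14).

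Of the priming factors, Unc13b differed and its relatives did not pass the limit. Unc13b encodes Munc13-2, which makes docked vesicles competent to fuse. It read 321 units after 10 ECS and 169.6 in sham (log2 ratio 1.06, 2.09-fold higher), and 199 after 11 ECS and 149 after a single ECS (0.42). The 11 ECS array lay below the 10 ECS array (-0.59, just past the limit, and -0.57 and under it after quantile normalization), and the single ECS and sham arrays lay close (0.05). The 10 ECS array was the highest of the 4, with the 11 ECS array next. Unc13b had 1 probe set. Unc13a, which encodes the main brain isoform Munc13-1, read 412, 302, 328 and 289.9 units, highest in sham, with ratios between -0.21 and -0.06. Rims2, an active zone scaffold that recruits Munc13 and calcium channels, read 486, 348, 365 and 331 units and had ratios between -0.27 and -0.04. Its second probe set gave ratios between -0.05 and 0.13, so no direction was read for Rims2.

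Complexins bind the assembled SNARE complex, where they both hold and promote fusion. Cplx2, the complexin of many excitatory neurons, read 2135 units after 10 ECS and 3557 in sham (log2 ratio -0.59, 1.51-fold lower), and 1994 after 11 ECS and 3014 after a single ECS (-0.59, 1.51-fold lower). Both arrays with earlier ECS were below both without. Each response to ECS was near 0 as centred here (-0.0002 for single ECS over sham and 0.004 for 11 ECS over 10 ECS). That depended on the scaling, since single ECS over sham was -0.24 as deposited and -0.17 after quantile normalization. The ratios of -0.59 sit just past the limit of 0.58. Quantile normalization gave -0.67 for 10 ECS over sham and -0.53 for 11 ECS over single ECS, so the second was then under the limit. Cplx1, the complexin of interneurons and other fast synapses, read 2608, 2417, 2660.1 and 2636 units, with ratios between 0.09 and 0.17. The difference between both complexin genes rests on 1 probe set for Cplx2. Cplx1 had 3 probe sets, each with a mean of at least 50 units. They gave 0.17, 0.13 and 0.20 for 10 ECS over sham, and 0.13, 0.11 and 0.07 for 11 ECS over single ECS.

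Of the genes of vesicle retrieval, Synj2, a phosphoinositide phosphatase of the synaptojanins, read 50.5, 57.8, 64.2 and 59.9 units from sham to 11 ECS. The sham array was the lowest, and the ratio to it was 0.43 after a single ECS and 0.49 after 10 ECS, both under the limit. A second Synj2 probe set, with a mean of 50.45 units, was also lowest in sham (0.40 and 0.55). It was highest after 11 ECS, with 0.43 over 10 ECS and 0.58 over single ECS. The brightest gave 0.003 and 0.06 there. Synj2bp entered by its symbol only, since it encodes an outer mitochondrial membrane protein, and its ratios lay between -0.22 and 0.20.

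By comparison, the response to a single ECS had 2 of 53 members higher (3.77%: Stx4a and Stxbp3), where 3.83% of all genes were higher, and 1 lower (1.89%: Rab3d), where 3.46% of all genes were. The response to the 11th ECS had 1 higher (Stxbp3), against 2.96% of all genes, and 2 lower (Rab3d and Unc13b), against 2.17%. These counts of 1 or 2 genes are near the background. Only Stxbp3 was higher in both responses, which 2.13% of all genes were, and only Rab3d lower in both, as were 0.746%. The median of the members was 0.05 after a single ECS and -0.0008 after the 11th, where the median of all genes is 0 by construction. Brighter genes lay above the median gene after a single ECS, and among genes with a mean of at least 500 units the median was 0.09 for the 23 members and 0.08 for all 2049 genes.

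These responses share no array. Across the 53 members Pearson's r was 0.61 and Spearman's rho 0.49, as a description across genes, which are not independent replicates and share the 4 arrays' libraries, and 33 of 53 had the same sign. Across all genes the values were 0.71 and 0.51, with the same sign in 68.2%. Without Stxbp3 and Rab3d, left out after their values were seen, the members had 0.38 and 0.43. The difference of responses, which uses all 4 arrays and has no repeat, was 0.58 for Stxbp3 (larger after the 11th ECS), and -0.58 for Stx4a, -0.64 for Unc13b and -0.72 for Stx2. The dimmer probe set of Stxbp3 gave 0.49 in each response and so did not show a larger one after the 11th ECS.

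**Figure D3:**
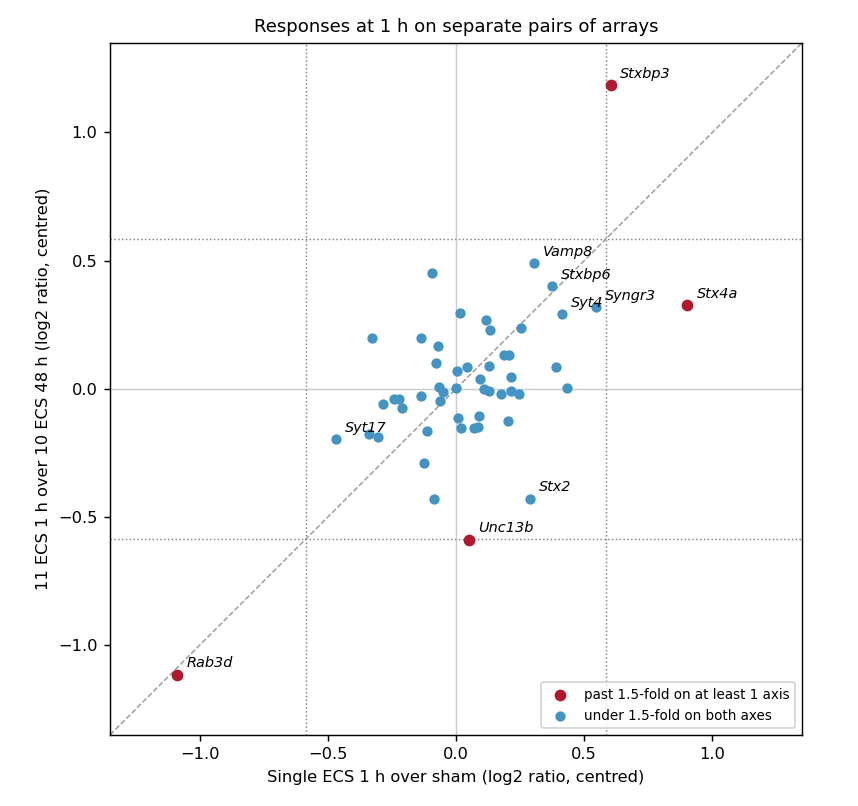
Response to the 11th ECS (11 ECS over 10 ECS) against the response to a single ECS (single ECS over sham), as centred log2 ratios, 1 point per member (53 genes); dotted lines mark 1.5-fold and the dashed line equal responses. Stxbp3 (0.60 and 1.19) and Rab3d (-1.09 and -1.12) lie past the dotted lines on both axes, and most other members lie near the centre.

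After earlier ECS, 1 member was higher for 10 ECS over sham (1.89%: Unc13b), against 1.67% of all genes, and 1 was lower (Cplx2), against 2.08%. For 11 ECS over single ECS 0 members were higher, against 1.85% of all genes, and 2 were lower (3.77%: Cplx2 and Stx2), against 2.59%. Of the members 0 were higher in both, as were 0.583% of all genes, and only Cplx2 was lower in both, as were 0.624%. Cplx2 lay just past the limit, and just under it lay Stxbp3 (0.58 for 11 ECS over single ECS) and Syt1 (-0.50 and -0.49). The medians of the members were 0.02 and -0.02. On these pairs, which share no array either, Pearson's r was 0.42 and Spearman's rho 0.32 across the members (all genes 0.42 and 0.34), and without Unc13b and Cplx2, left out after their values were seen, both were 0.24.

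**Figure D4:**
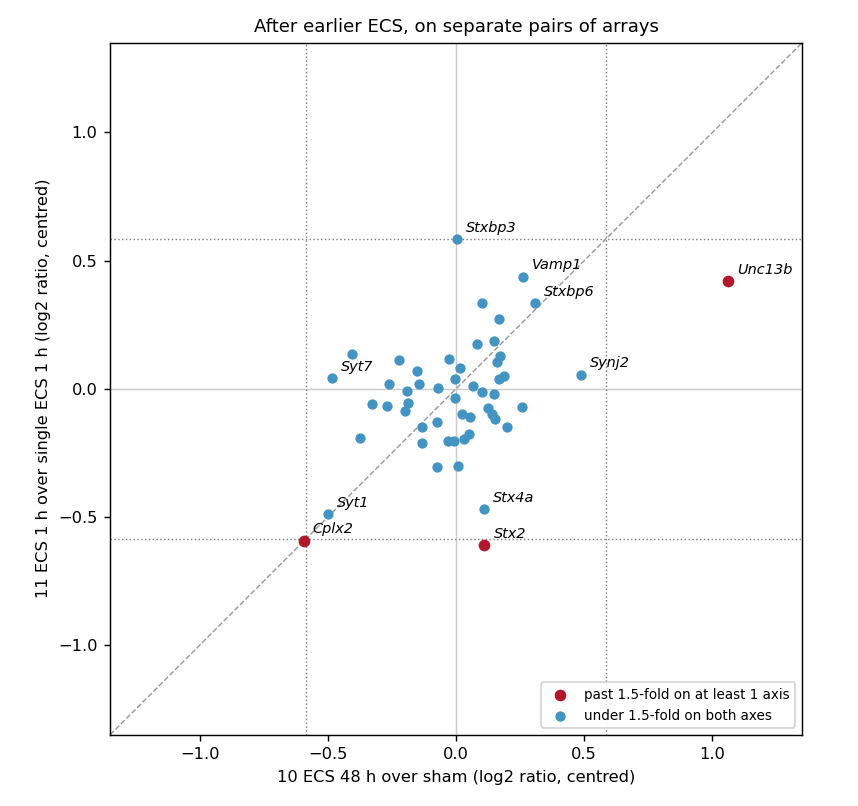
Ratio of 11 ECS over single ECS against that of 10 ECS over sham, as centred log2 ratios, 1 point per member (53 genes); dotted lines mark 1.5-fold and the dashed line equal ratios. Cplx2 (-0.59 on both axes) and Syt1 (-0.50 and -0.49) lie near the dashed line, and Unc13b lies to the right (1.06 and 0.42).

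Markers of cell types moved on the same arrays. Of the 5 GC markers (Prox1, Calb1, Dsp, Tdo2 and C1ql3), 3 were lower for 10 ECS over sham and 3 for 11 ECS over single ECS, beside Cplx2 and Syt1, and their summed signal was 9495 units in sham, 7706 after a single ECS, 6135 after 10 ECS and 5343 after 11 ECS. These sums, like those below, were not centred and lean on the brightest genes, here Calb1 and C1ql3. The median centred ratio of the 5 GC markers was 0.003 for single ECS over sham and -0.64 for 10 ECS over sham. Of 4 immature neuron markers, 2 were higher for 10 ECS over sham and 3 for 11 ECS over single ECS, and their sums were 675, 934, 932 and 1492 units in the same order. The high sums at 1 h after ECS came with Sox11, which was itself higher in both responses (1.27 and 1.49), while Dcx, the marker of young neurons, lay at -0.16 and 0.09 there and at 0.74 and 0.99 in both comparisons after earlier ECS. Of 4 astrocyte markers 1 was higher in both of these comparisons, Gfap, the astrocyte filament gene. Of 6 interneuron markers 0 passed the limit in any comparison, with sums between 4486 and 5051 units. In whole tissue, fewer cells of a type and less RNA per cell cannot be told apart, and the part of these markers in the values of Cplx2, Syt1 and Unc13b was not tested. At 1 h, 0 of the 5 GC markers were lower after a single ECS and 2 after the 11th, beside Rab3d and Stxbp3, whose relation to them was not tested. Ttr, the defining gene of choroid plexus, read 215.9 units after a single ECS and 67.2 in sham, but 76.9 after 11 ECS and 103 after 10 ECS, and of the 2 endothelial markers Cldn5 was higher for single ECS over sham (0.73) and for 10 ECS over sham (0.68), while Flt1 was not (-0.002 and -0.15). Their part in the values of Stx4a, high on the same single ECS array, and of Unc13b was not tested.

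Other genes of transmitter release, a list of 54 with 44 on the array and 38 with a mean of at least 50, had counts past the limit near the shares of all genes. After a single ECS 0 were higher and 0 lower (3.83% and 3.46% of all genes), and their median was 0.06. For 11 ECS over 10 ECS 1 was lower (2.17% of all genes), Cacna1a, the presynaptic P/Q-type calcium channel gene, with 157 units after 11 ECS and 256.5 after 10 ECS (-0.61). Rph3a, which encodes the Rab3 effector rabphilin, was the 1 lower member in both comparisons after earlier ECS (2.08% and 2.59% of all genes). It read 104 units after 10 ECS and 229.8 in sham (-1.002), and 76.2 after 11 ECS and 183 after a single ECS (-1.26). Both arrays with earlier ECS were below both without, as for Cplx2 and, within the limit, Syt1.

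The 13 members under a mean of 50 units were Cplx3, Cplx4, Slc17a6, Stx19, Syn3, Syngr4, Syt2, Syt3, Syt6, Syt8, Syt9, Syt10 and Vamp5. Their brightest probe sets read between 0.9 and 53.3 units, and no call was made for them. A further 22 genes whose RefSeq symbols fit the same families were not analysed here.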

How the data were processed

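DG RNA of 4 groups, 1 array each with RNA pooled from 3 mice, was measured on Affymetrix Mouse Genome 430A 2.0 arrays. From 100 ng of RNA the authors computed and deposited 1 MAS5 signal intensity per probe set and array (named MAS5 by the submitters' processing notes, Microarray Suite 5.0 by the methods, with scaling between arrays not given in the sources used here). For arrays, their number limits the precision.

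From these intensities, 64 control probe sets were left out, as were 691 probe sets with several symbols and 1555 with none in the array annotation. Signals under 12, the 25th percentile, were set to 12, a gene took its probe set with the highest mean, genes with a mean of at least 50 were kept, and log2 ratios were centred on the median gene. A ratio with both signals under the floor has no value. The members and lists were chosen with earlier results of these data known. Named were members past 1.5-fold in any comparison, the 3 highest and 3 lowest of each, and those with a canonical role in release, and other members after their values were seen. With 1 array per group no test was run. Tried instead were signals as deposited, quantile normalization, a floor of 50, a mean of at least 100 or no minimum, the median over probe sets, a 2-fold limit and, chosen after seeing the data, centring within 10 classes of brightness. Steps were tested on simulated data. RefSeq tables (GRCm38.p6) gave promoters and symbols. Python 3.11.15, pandas 2.3.3, numpy 2.4.6 and matplotlib 3.10.9 were used.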

Additional observations from a re-analysis of the deposited data

How the results depend on the processing

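Of the counts and medians over the members, 69 of the values under other settings stayed within 1.5 times the count, or within the spread, of those reported, and 23 did not. With signals as deposited, 1 member was higher (Stx4a) and 2 lower (Rab3d and Syt17) for single ECS over sham, with a median of -0.19, and 3 were lower for 10 ECS over sham (Cplx2, Syt1 and Syt7), with a median of -0.13, so that both medians, above 0 as reported, turned below it. Among all genes as deposited, 2.32% were higher and 12.03% lower for single ECS over sham, and 4.36% were lower for 10 ECS over sham. The 2 lower members of 53 for single ECS over sham were thus a smaller share than that of all genes. Quantile normalization, and likewise centring within 10 classes of brightness, chosen after seeing the data, left 1 lower member for 11 ECS over 10 ECS (Rab3d) and 1 for 11 ECS over single ECS (Stx2), so that Unc13b and Cplx2 lost those calls. Of all genes, 1.67% and 2.58% were lower there after quantile normalization, and 1.72% and 2.69% after centring within classes. With a mean of at least 100, 11 ECS over single ECS had 1 higher (Stxbp3, against 0.949% of all genes) and 1 lower (Cplx2, against 2.11%). With no minimum, all 66 genes entered, and single ECS over sham had 2 lower, 11 ECS over 10 ECS 3 higher, 10 ECS over sham 3 higher and 4 lower, and 11 ECS over single ECS 2 higher and 4 lower, each added gene being dim. The shares of all genes were then 5.74%, 4.97%, 4.75% and 4.27%, and 4.34% and 4.22%, in the same order. With the median over probe sets, 2 were lower for single ECS over sham (Rab3d and Syt17), 1 lower for 11 ECS over 10 ECS (Rab3d) and 1 higher for 11 ECS over single ECS (Stxbp3). The shares of all genes were 3.26%, 1.98% and 1.87% in that order. At 2-fold, 0 were higher for single ECS over sham, 1 was lower for 11 ECS over 10 ECS (Rab3d), and 0 were lower for 10 ECS over sham and for 11 ECS over single ECS. Of all genes, 1.72%, 0.231%, 0.231% and 0.502% were, in that order. Of the values of the 6 single members under these settings, 158 moved by less than the spread between probe sets and 6 by more, those 6 all for single ECS over sham as deposited. The cause of these differences was not tested, beyond the genes each setting adds or drops. No paired analysis was possible because each group had 1 array, and for the same reason no array could be left out. Signals near the floor of 12 limit what dim members can show.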
